A study of Mus musculus with 6 samples.

Results

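The genes described here are the nuclear genes whose products build the machinery of mitochondrial oxidative phosphorylation (OXPHOS), followed in mice that lack both miR-124a-1 and miR-124a-2. Members were chosen by gene symbol alone: Nduf genes for complex I, Sdha to Sdhd for complex II, Uqcr genes and Cyc1 for complex III, Cox4 to Cox8 genes for complex IV and Atp5 genes for complex V, without pseudogene and unnamed clone symbols. The rule took 86 of the 24346 rows of the expression tables, of which 82 had a mean of at least 1 FPKM (fragments counted on a gene, relative to its transcript length and to the size of the library) and were tested. Complex I had 38 members, complex II 4, complex III 9, complex IV 18 and complex V 17. The 4 members under that mean were all in complex IV, namely Cox6a2, Cox7b2, Cox8b and Cox8c.

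The respiratory chain sits in the inner mitochondrial membrane. Complexes I and II pass electrons from NADH and succinate to ubiquinone, complex III passes them on to cytochrome c, and complex IV, cytochrome c oxidase, hands them to oxygen. Complexes I, III and IV pump protons as they do so, and complex V, the ATP synthase, uses the returning protons to make ATP. Most subunits are encoded in the nucleus and a few in the mitochondrial genome, whose genes were not analysed here. Neurons depend heavily on this pathway, and photoreceptors are among the cells richest in mitochondria.

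The series compared RNA from mice labelled miR-124a-1/2 DKO (double knockout) with RNA from control mice labelled miR-124a-1+/-. By that label the controls also carry 1 deleted copy of miR-124a-1. All were labelled brain at embryonic day 17.5, with 3 libraries in each group. The labels name separate brains but no litters, batches or dates, so p-values measure the spread between these samples. The column headers of the DKO files read CKO, which the labels do not explain. The purpose, as the title of the series puts it, concerns the maturation of neurons.

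The microRNAs labelled as deleted could not be followed in these libraries, since the rows Mir124a-1, Mir124a-2 and Mir124a-3 were listed at 0 in all 6. The host transcript of miR-124a-1, Mir124a-1hg, had 510.2, 464 and 502 FPKM in DKO libraries, against 420.1, 528 and 492 FPKM in control libraries. The host of miR-124a-2, 2610100L16Rik, had 69.9, 98.0 and 97.8 FPKM in DKO libraries, against 80.3, 110.5 and 115 FPKM in control libraries. Both hosts overlapped between groups, so neither separates the labels. No label says whether the deleted segments lie in the counted exons. Marker genes went against the labelled tissue and age. The summed level of 8 rod photoreceptor markers was 12947 to 14040 FPKM in DKO libraries and 13543 to 14618 FPKM in control libraries. By contrast 6 telencephalic neuron markers summed to 4.04 to 4.35 FPKM in DKO and 3.78 to 4.57 FPKM in control libraries, with Emx1 at 0 in all, and 5 cell cycle markers to 0.887 to 1.25 FPKM in DKO and 0.874 to 1.56 FPKM in control libraries. The libraries are therefore called here by their genotype labels, and no tissue is assigned. Library sums were 402832 to 414650 FPKM in DKO and 405367 to 436299 FPKM in control libraries, the highest in control replicate 3.

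OXPHOS transcripts were abundant in both groups and slightly lower in DKO libraries, with the lowest ratio of summed levels in complex IV, but no member passed the test over all genes. Of the 82 tested members 62 (75.6%) had a log2 fold change (DKO minus control) below 0 and 20 above, against 50.5% below 0 among all 13215 tested rows. The median over members was -0.05, beside -0.0016 over all tested rows. With limma and Benjamini-Hochberg adjustment over all tested rows, 0 members had an adjusted p under 0.05, the smallest being 0.158, and only 3 of all tested rows (0.0227%) did, 2 higher (0.0151%) and 1 lower (0.00757%). At an unadjusted p under 0.05 there were 12 members lower in DKO and 1 higher, together 15.9% of those tested. Among all tested rows 7.88% reached that level, 4.36% lower and 3.52% higher. The 3 DKO values all lay below the 3 control values in 17 members, and all above in 1, against 6.95% and 6.96% of all tested rows. Both criteria were met by 11 members, all lower in DKO, and the share of all tested rows that met both was not taken.

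The levels of the members spanned 6.32 to 643 FPKM with a median of 131 FPKM, beside 12.6 FPKM over all tested rows. Of the members 54 exceeded 100 FPKM and 65 stood among the 1000 highest tested rows. Summed over all members, the level was 13494, 13464 and 13637 FPKM in DKO libraries, against 13979, 13868 and 14694 FPKM in control libraries. The groups did not overlap in this sum, and the lowest control library lay just above the highest DKO library. As a share of all FPKM the members took 3.35%, 3.30% and 3.29% in DKO libraries, against 3.45%, 3.39% and 3.37% in control libraries. Here the groups again did not overlap, by a margin smaller than the range within either group. Control replicate 3 stood highest, with a median log2 deviation of its members of 0.08, where the other 5 libraries lay between -0.04 and 0.01. In RNA from whole tissue, fewer cells of a type that is rich in these transcripts and less RNA per cell cannot be told apart.

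**Figure D1:**
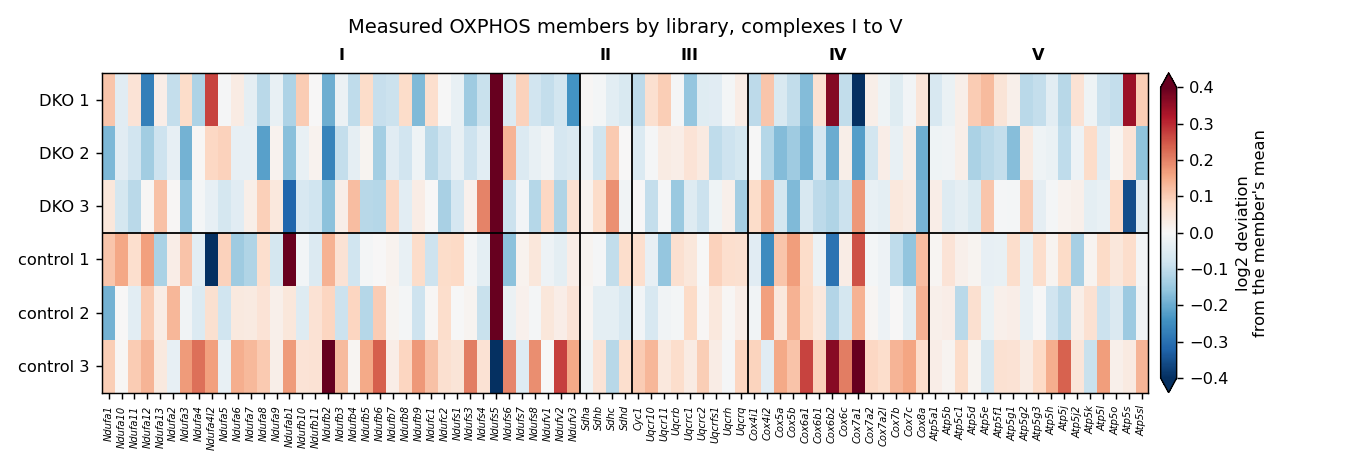
Each column is a tested member (1 member not reported here is left out), ordered by complex (I to V), and each row a library, with the 3 DKO libraries above the 3 control libraries; colour gives the log2 deviation of log2(FPKM + 1) from the member's mean over all 6 libraries, clipped at the ends of the scale. Blue is more frequent in DKO rows, control replicate 3 is the reddest row, and the Ndufs5 column is blue in control replicate 3 alone.

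Complex IV had the largest share of members at an unadjusted p under 0.05. Of its 14 tested members 11 were below 0 and 3 above, with a median log2 fold change of -0.06. An unadjusted p under 0.05 was reached by 5 (35.7%), all lower, beside 7.88% of all tested rows in either direction. The summed level of the complex was 2974, 2915 and 2946 FPKM in DKO libraries, against 3120, 3144 and 3368 FPKM in control libraries. The groups did not overlap, and the means were 2945 ± 29.5 FPKM in DKO and 3211 ± 137 FPKM in control libraries (SD, n = 3 each), a log2 ratio of -0.12. In complexes I, III and V the summed levels averaged 4488 ± 77.8, 1524 ± 30.8 and 4240 ± 34.7 FPKM in DKO libraries, against 4710 ± 203, 1580 ± 34.8 and 4351 ± 85.2 FPKM in control libraries (SD, n = 3 each). Complex II alone was higher in DKO in this sum, at 334 ± 10.4 FPKM in DKO and 328 ± 2.97 FPKM in control libraries (SD, n = 3 each). The sums of complexes II, III and V overlapped between groups. As a share of all FPKM, complex I took 1.09% to 1.10% in DKO and 1.12% to 1.14% in control libraries, and complex IV 0.71% to 0.738% in DKO and 0.768% to 0.772% in control libraries, both without overlap. The shares of complexes II, III and V overlapped, complex III taking 0.36% to 0.385% in DKO and 0.371% to 0.387% in control libraries and complex V 1.03% to 1.05% in DKO and 1.02% to 1.08% in control libraries. Whether the complexes differed from each other was not tested.

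Among all members Cox5b, a nuclear subunit of cytochrome c oxidase that carries a zinc ion on the matrix side, had the smallest p. Cox5b (1:36691449-36693681, plus strand, GRCm38) had 238, 231 and 226 FPKM in DKO libraries, against 287, 281 and 276 FPKM in control libraries. The values within each group were close together and the groups were far apart. Cox5b averaged 232 ± 6.11 FPKM in DKO and 281.5 ± 5.34 FPKM in control libraries (SD, n = 3 each), and the log2 fold change was -0.28 (SE 0.04, limma unadjusted p = 0.00016, Benjamini-Hochberg adjusted p = 0.158). A gene model with a near-identical coding sequence, Gm11273, has no row in the tables.

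Cox6a1 is the widespread form of subunit 6a, whose other form, Cox6a2, belongs to heart and skeletal muscle. Cox6a1 (5:115345642-115348981, minus strand) had 280.5, 278 and 303 FPKM in DKO libraries, against 333, 334 and 382 FPKM in control libraries. All DKO values were lower than all control values, with control replicate 3 the highest. The log2 fold change was -0.28 (SE 0.07, limma adjusted p = 0.364). Cox5a, another subunit on the matrix side, had 138, 128 and 137 FPKM in DKO libraries, against 155.5, 148 and 160 FPKM in control libraries. Its groups did not overlap either, and the log2 fold change was -0.20 (SE 0.05, limma adjusted p = 0.388). Exons of Cox5a (9:57521274-57532426, plus strand) share bases with an antisense gene, Gm26631.

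Cox8a, the widespread form of subunit 8, had 463, 391.5 and 393 FPKM in DKO libraries, against 488, 493.5 and 470.2 FPKM in control libraries. DKO replicate 1 stood close to the control values and the other DKO libraries well below them. The log2 fold change of Cox8a (19:7215153-7217616, minus strand) was -0.22 (SE 0.07, limma adjusted p = 0.516). Cox7a1, the heart and muscle form of subunit 7a, was far lower in level, at 3.46, 5.59 and 7.65 FPKM in DKO libraries, against 8.14, 7.44 and 9.37 FPKM in control libraries. Its groups overlapped, since DKO replicate 3 exceeded control replicate 2. The log2 fold change was -0.55 (SE 0.22, limma adjusted p = 0.601), and it was -0.30 without DKO replicate 1.

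The remaining isoforms of complex IV that were tested overlapped between groups. Cox4i1, the widespread form of subunit 4 and the highest member of the complex, had 468, 502 and 529 FPKM in DKO libraries, against 487, 498 and 535 FPKM in control libraries. The groups overlapped through their whole range, and the log2 fold change was -0.02, which turned positive under quantile normalization. Cox4i2, its form known from lung and from low oxygen, had 42.0, 35.8 and 42.8 FPKM in DKO libraries, against 32.5, 43.6 and 37.6 FPKM in control libraries. This amounted to 7.14% to 8.99% of the Cox4i1 level in DKO and 6.66% to 8.77% in control libraries, ranges that nearly coincide. Cox6b2, the testis form of subunit 6b, stood at 3.89% to 5.40% of Cox6b1 in DKO and 3.50% to 5.27% in control libraries. Cox6b1 had a log2 fold change of -0.07, Cox7a2 of -0.05 and Cox7a2l, which helps join complexes III and IV, of -0.02. Against Cox7a2, Cox7a1 stood at 2.27%, 3.92% and 5.21% in DKO libraries and 5.46%, 4.93% and 5.90% in control libraries, again with DKO replicate 3 inside the control range.

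The members of complex IV under the filter were at or near 0. Cox6a2 had 0.296, 0.716 and 0.523 FPKM in DKO libraries and was listed at 0, 0 and 0.291 FPKM in control libraries. Cox7b2, a testis form of subunit 7b, had 0.80, 0.323 and 0.707 FPKM in DKO libraries and was listed at 0 in every control library. All DKO values of these genes exceeded all control values, all under 1 FPKM, and no fold is given. Cox8b, the heart and muscle form of subunit 8, was above 0 in DKO replicate 3 (0.780 FPKM) and control replicate 2 (1.69 FPKM) only. Cox8c was listed at 0 in all 6 libraries.

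**Figure D2:**
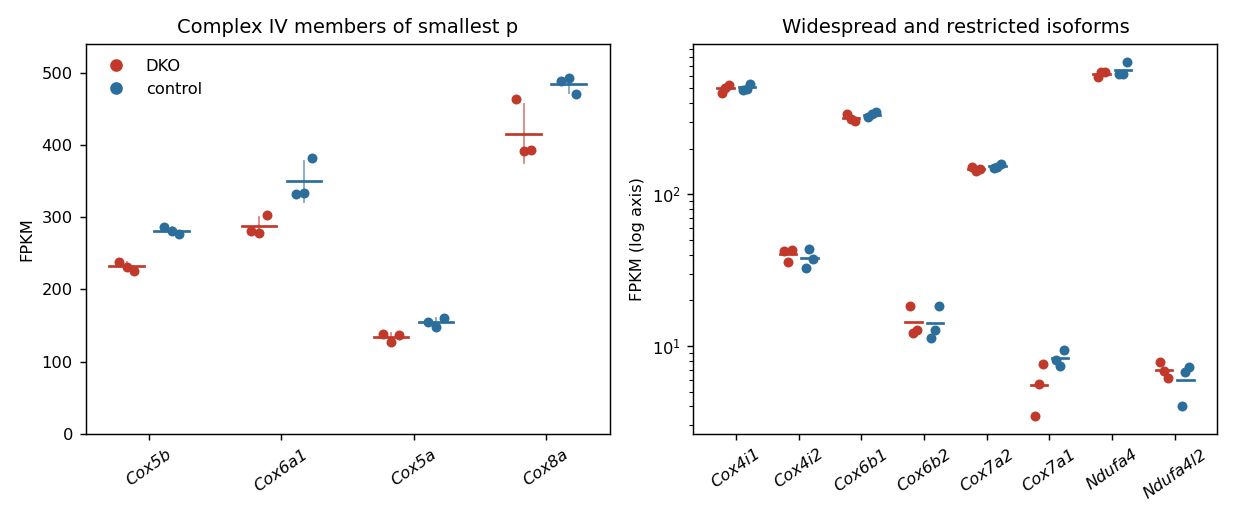
FPKM in each library (points), with the mean (bar) and, in the left plot, the SD (line), of complex IV members of smallest p (left, axis from 0) and of widespread and restricted isoforms with Ndufa4 and Ndufa4l2 (right, log axis), DKO left of control. The DKO points of Cox5b, Cox6a1, Cox5a and Cox8a lie below their control points, whereas the genes on the right overlap between groups, Cox7a1 only through DKO replicate 3.

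The sequence before the start sites of the 5 complex IV members at an unadjusted p under 0.05 is shown because they were lower together. Promoter windows of 250 bases before to 50 bases after the annotated start (RefSeq, GRCm38.p6) were found for 70 of the 86 members and searched on both strands for 4 motifs. In the stretches printed here, from 170 bases before the start to just after it (for Cox5b, up to its first annotated exon), capitals mark GCGCA, any base and then GCGC, the site of NRF1, a known regulator of respiratory genes, and CCGGAAG, the core site of ETS factors such as GABPA, or its reverse complement.
Cox5b (chr1:36691317-36691448, plus strand): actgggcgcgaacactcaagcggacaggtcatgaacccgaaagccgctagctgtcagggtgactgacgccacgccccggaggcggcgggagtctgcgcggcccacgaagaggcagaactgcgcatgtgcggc
Cox6a1 (chr5:115348957-115349128, minus strand): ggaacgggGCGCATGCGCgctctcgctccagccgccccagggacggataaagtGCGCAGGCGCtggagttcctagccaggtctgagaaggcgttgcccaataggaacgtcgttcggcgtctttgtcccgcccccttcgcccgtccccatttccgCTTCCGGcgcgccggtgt
Cox8a (chr19:7217615-7217786, minus strand): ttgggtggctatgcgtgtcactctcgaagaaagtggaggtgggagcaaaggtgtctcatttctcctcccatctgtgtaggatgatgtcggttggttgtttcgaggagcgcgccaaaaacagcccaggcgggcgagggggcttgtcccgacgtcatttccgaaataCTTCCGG
Cox5a (chr9:57521062-57521233, plus strand): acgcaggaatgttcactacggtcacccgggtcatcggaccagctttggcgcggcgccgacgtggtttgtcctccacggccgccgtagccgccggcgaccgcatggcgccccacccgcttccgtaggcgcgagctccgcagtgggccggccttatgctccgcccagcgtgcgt
Cox7a1 (chr7:30184001-30184172, plus strand): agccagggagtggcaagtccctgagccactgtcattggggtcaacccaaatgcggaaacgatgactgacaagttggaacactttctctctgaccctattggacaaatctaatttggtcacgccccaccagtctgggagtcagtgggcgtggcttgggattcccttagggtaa
Cox6a1 held a pair of NRF1 matches, beginning 162 and 117 bases before the RefSeq start, and an ETS match 16 bases before it. The gene coordinates of Cox6a1 given above begin before that RefSeq start, so this ETS match lies inside them. The stretch of Cox7a1 also runs into its gene (7:30184144-30186078). Cox8a held an ETS match at 5 bases before the start and another, beyond the stretch shown, 32 bases after it. The windows of Cox5b, Cox5a and Cox7a1 held no match to any of the 4 motifs. Of the members with a window, the NRF1 letters were found in 17 (24.3%), against 11.4% of 10433 tested genes with a window. Among all 27025 genes with a window the share was 5.19%. A gene was counted if any of its windows held the letters. ETS letters were found in 16 (22.9%), against 19.4% of tested genes, and the YY1 letters AAGATGGCG in 8 (11.4%), against 3.5% of tested genes. TAATCC, a site of the photoreceptor factor CRX, was in 6 (8.57%), against 7.19% of tested genes. Of the 17 members with NRF1 letters 7 were in complex I, 6 in complex V and 1, Cox6a1, in complex IV. A match describes the sequence and not binding.

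Most members of complex I were also slightly lower in DKO. Of its 38 members 29 were below 0 and 9 above, and the median log2 fold change was -0.04. An unadjusted p under 0.05 was reached by 6 (15.8%), all lower in DKO, beside 7.88% of all tested rows in either direction. Summed levels were 4425, 4464 and 4575 FPKM in DKO libraries, against 4602, 4585 and 4944 FPKM in control libraries. The groups were separated by a narrow gap, and control replicate 3 lay far above the others. Without control replicate 3 the median of complex I was -0.02 and that of complex IV -0.03, and without control replicate 1 they were -0.07 and -0.11.

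The catalytic core, which carries the flavin and the iron-sulphur clusters, counted 7 nuclear members, of which 5 were below 0 and 2 above. Ndufs1, the largest core subunit, had 47.9, 47.9 and 46.7 FPKM in DKO libraries, against 51.7, 48.8 and 50.7 FPKM in control libraries. Its groups did not overlap, although the log2 fold change was only -0.08. Ndufs8, an iron-sulphur subunit, had 65.3, 67.4 and 63.5 FPKM in DKO libraries, against 71.0, 68.4 and 78.4 FPKM in control libraries. The DKO values lay just under the lowest control value, with a log2 fold change of -0.15 (SE 0.06, limma adjusted p = 0.601). Ndufv2, an iron-sulphur subunit beside Ndufv1, had 48.6, 48.8 and 47.0 FPKM in DKO libraries, against 49.8, 52.1 and 62.1 FPKM in control libraries. The DKO values were all lower, by little except against control replicate 3, with a log2 fold change of -0.18 (limma adjusted p = 0.650). Ndufs3, a core subunit without a cluster, had 73.9, 77.1 and 82.6 FPKM in DKO libraries, against 81.3, 82.3 and 94.2 FPKM in control libraries, and its groups overlapped at a log2 fold change of -0.14. Ndufv1, the subunit that oxidises NADH, and Ndufs7, next to the ubiquinone site, had log2 fold changes of -0.02 and 0.02.

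Of the 31 other Nduf members, accessory subunits for the most part, 24 were below 0 and 7 above. Ndufb2, an accessory subunit of the membrane arm, had 73.7, 70.2 and 75.4 FPKM in DKO libraries, against 93.2, 89.9 and 112 FPKM in control libraries. The groups were clearly apart, and the log2 fold change was -0.42 (SE 0.08, limma adjusted p = 0.269). Ndufb2 (6:39592574-39603382, plus strand) shares exon bases with the antisense genes Braf and Gm16272. Ndufab1, the mitochondrial acyl carrier protein that also serves fatty acid synthesis, had 45.1, 43.7 and 39.3 FPKM in DKO libraries, against 65.0, 50.9 and 55.5 FPKM in control libraries. No value overlapped, with control replicate 1 the highest and a log2 fold change of -0.41 (SE 0.09, limma adjusted p = 0.340). Near-identical copies of Ndufab1, Gm4459 and Ndufab1-ps, make its level uncertain.

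Ndufa12, an accessory subunit of the peripheral arm, had 86.1, 94.7 and 105 FPKM in DKO libraries, against 117, 112 and 115 FPKM in control libraries. DKO values were the more scattered and all lower, with a log2 fold change of -0.27 (SE 0.07, limma adjusted p = 0.409). Ndufb6 had 84.3, 81.7 and 82.9 FPKM in DKO libraries, against 89.9, 96.4 and 106 FPKM in control libraries. Ndufc2 had 101, 96.0 and 92.4 FPKM in DKO libraries, against 107, 106 and 106 FPKM in control libraries. Both are membrane arm subunits, and neither overlapped between groups, with log2 fold changes of -0.23 and -0.14 (limma adjusted p = 0.438 and 0.530). Ndufa4, first purified with complex I and later assigned to complex IV, was the highest of all members at 589, 643 and 638 FPKM in DKO libraries, against 623, 618 and 748 FPKM in control libraries. Its groups overlapped, and counting it and Ndufa4l2 in complex IV left both medians at -0.04 and -0.06. Ndufa4l2, its relative known from low oxygen, stood at 0.972% to 1.34% of Ndufa4 in DKO and 0.647% to 1.09% in control libraries.

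**Figure D3:**
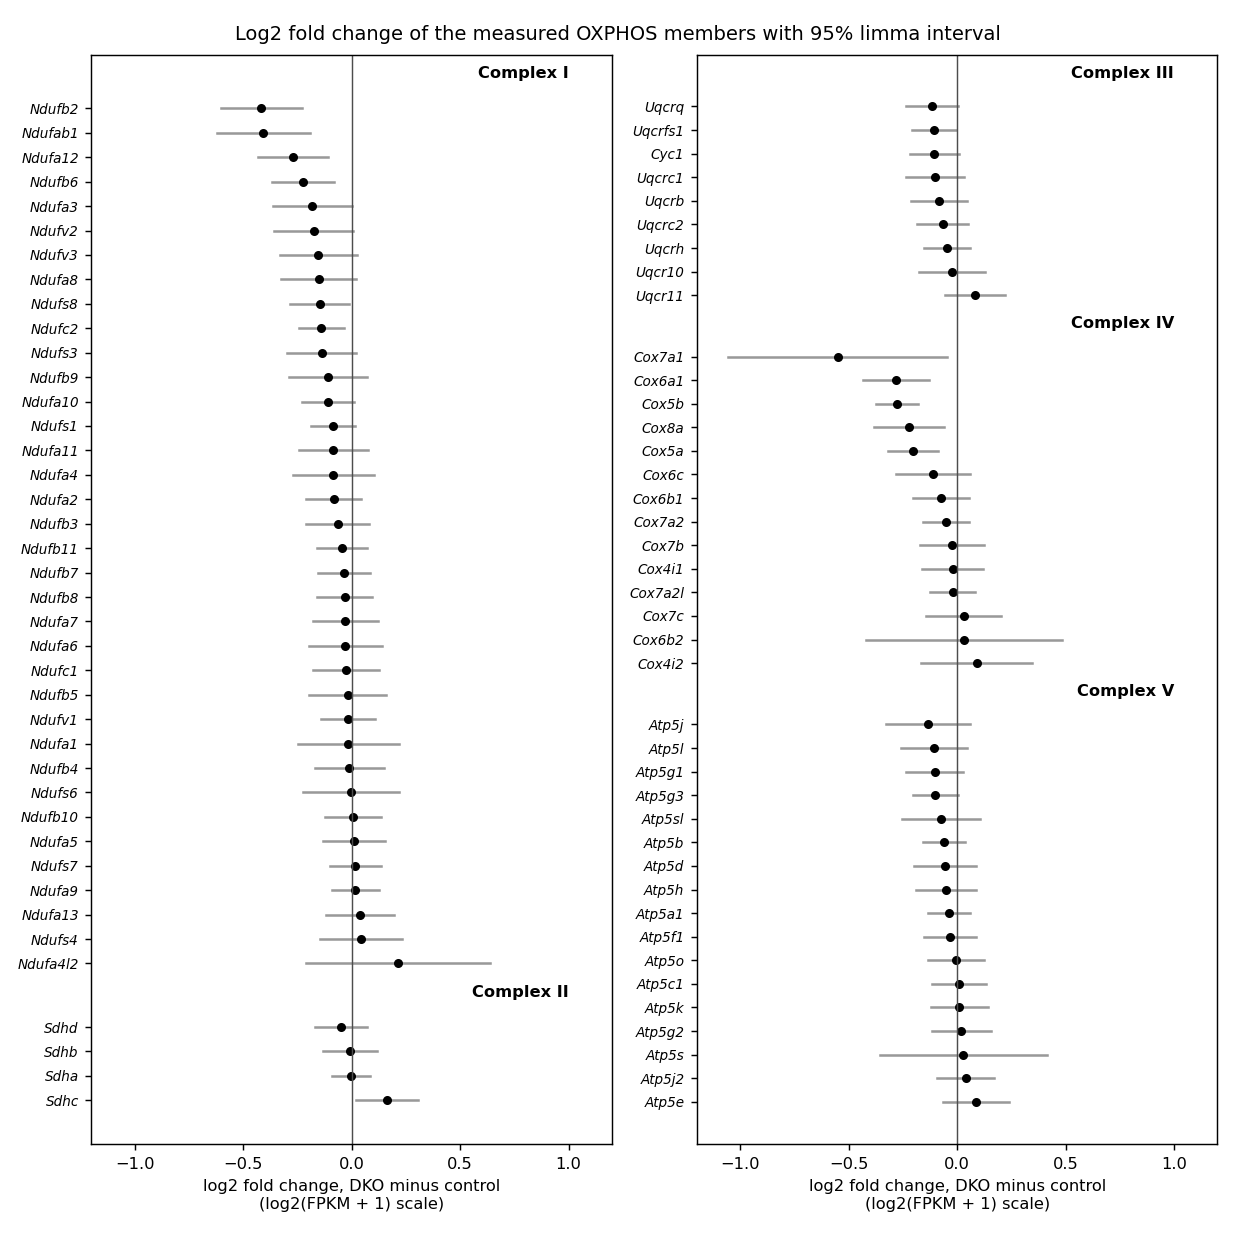
Log2 fold change, DKO minus control on the log2(FPKM + 1) scale, of each tested member but 1 not reported here (points) with its 95% limma interval (lines), grouped by complex I to V. Most points lie left of 0 with intervals that cross it, and Ndufs5, with a wide interval, is not drawn.

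Ndufs5 had the largest fold change of all members, and it rested on 1 library. Singled out after its values were seen, Ndufs5 had 44.0, 42.9 and 45.8 FPKM in DKO libraries, against 30.8, 40.4 and 0.0177 FPKM in control libraries. Control replicate 3 was at nearly 0, and the other control libraries lay below the DKO values as well. The log2 fold change was 2.04 (SE 1.23, limma adjusted p = 0.752) with all libraries and 0.32 without control replicate 3. Of 36 rows with a mean over 20 FPKM and a library under 0.1 FPKM, 35 were short RNA genes and Ndufs5 was the other one. In the same control library BC002163, an annotated processed pseudogene of Ndufs5 (16:42955631-42955949, plus strand), had its highest level. BC002163 had 116, 86.9 and 72.0 FPKM in DKO libraries, against 102.5, 94.6 and 129 FPKM in control libraries. Its groups overlapped only through DKO replicate 1, since DKO replicates 2 and 3 lay below every control value. The log2 fold change of BC002163 was -0.26 (limma adjusted p = 0.7725), opposite in sign to that of Ndufs5.

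Ndufs5 (4:123712710-123718202, minus strand) and BC002163 are nearly the same in sequence, which is why the first 120 coding bases are printed with the differing bases in capitals. Positions count from the A of the start codon, and sequences come from the GRCm38 genome with GENCODE M21 gene models.
Ndufs5: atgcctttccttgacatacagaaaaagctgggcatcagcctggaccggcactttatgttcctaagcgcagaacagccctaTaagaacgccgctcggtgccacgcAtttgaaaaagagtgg
BC002163: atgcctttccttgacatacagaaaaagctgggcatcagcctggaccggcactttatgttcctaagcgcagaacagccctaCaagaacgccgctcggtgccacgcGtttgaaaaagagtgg
The substitutions T81C and A105G, Ndufs5 base first, were the only 2 differences over the 318 coding bases (99.4% identity). Within the coding sequence, fragments that cover neither position, and no exon junction, are the same in both, and no source used here says how they were counted. The level of Ndufs5 is therefore uncertain in every library, and what set the value of control replicate 3 was not tested.

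**Figure D4:**
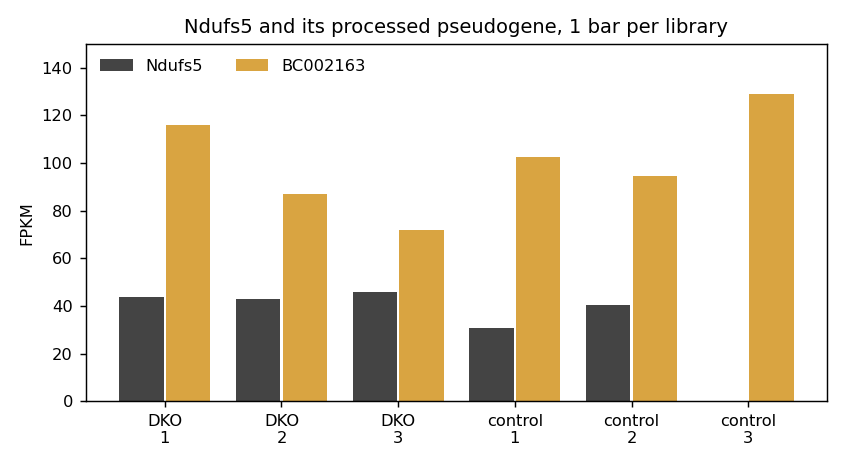
FPKM of Ndufs5 and of its processed pseudogene BC002163 in each library, 1 bar per library and gene, DKO libraries left of control libraries. Ndufs5 is between 30.8 and 45.8 FPKM in 5 libraries and 0.0177 FPKM in control replicate 3, where BC002163 is highest at 129 FPKM.

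Complex II, which also works in the citric acid cycle, had 3 members below 0 and 1 above, with a median log2 fold change of -0.0047. Sdha, its flavoprotein, had 116, 114 and 116 FPKM in DKO libraries, against 116, 116 and 114 FPKM in control libraries. The groups overlapped almost completely, with a log2 fold change of -0.0016, and that of the iron-sulphur subunit Sdhb was -0.0078. Sdhc, a membrane anchor, had 75.3, 83.5 and 88.2 FPKM in DKO libraries, against 72.4, 75.4 and 71.8 FPKM in control libraries. It was the only member higher in DKO at an unadjusted p under 0.05, with a log2 fold change of 0.16 (SE 0.06, limma adjusted p = 0.592), and DKO replicate 1 overlapped control replicate 2. The other anchor, Sdhd, had a log2 fold change of -0.05.

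In complex III 8 of 9 members were below 0, with a median log2 fold change of -0.09. An unadjusted p under 0.05 was reached by 1 (11.1%), beside 7.88% of all tested rows. Uqcrfs1, the Rieske iron-sulphur protein, had 65.9, 63.3 and 67.2 FPKM in DKO libraries, against 72.5, 70.0 and 69.5 FPKM in control libraries. It was the only member of the complex without overlap, with a log2 fold change of -0.11 (SE 0.04, limma adjusted p = 0.602). Cyc1, cytochrome c1, had 106, 110 and 114 FPKM in DKO libraries, against 120, 113.5 and 123 FPKM in control libraries. DKO replicate 3 reached just above control replicate 2, and the log2 fold change was -0.11 (limma adjusted p = 0.654). The core protein Uqcrc1 and the small subunits Uqcrq and Uqcrb had log2 fold changes of -0.10, -0.12 and -0.09, and that of Uqcrh, the highest member at 297 ± 10.9 FPKM in DKO and 306 ± 8.18 FPKM in control libraries (SD, n = 3 each), was -0.05. Only Uqcr11, a small subunit, was above 0, at 0.08.

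Complex V had 11 members below 0 and 6 above, with a median log2 fold change of -0.04, and 0 reached an unadjusted p under 0.05. Atp5b, the catalytic beta subunit, had 627, 632 and 615 FPKM in DKO libraries, against 663, 650.0 and 643 FPKM in control libraries. The groups did not overlap, yet the log2 fold change was only -0.06. Its partners in the head and rotor, Atp5a1 and Atp5c1, had log2 fold changes of -0.04 and 0.0088. The 3 Atp5g genes encode the same mature c ring subunit. Atp5g1 had 151, 132 and 148 FPKM in DKO libraries, against 156, 151 and 155 FPKM in control libraries. Atp5g3 had 321, 339 and 335 FPKM in DKO libraries, against 361, 343 and 363 FPKM in control libraries. Both were without overlap at a log2 fold change of -0.10, which for Atp5g1 was -0.04 without DKO replicate 2, while Atp5g2 overlapped at 0.02. In the peripheral stalk all 4 members were below 0, led by Atp5j at -0.13, and Atp5l, a small membrane subunit, had -0.11, all overlapping between groups. Without control replicate 3 Atp5j stood at -0.05 and Atp5l also at -0.05. Atp5s and Atp5sl are not subunits of the synthase in spite of their symbols, and had log2 fold changes of 0.03 and -0.08.

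Genes around the complexes gave no adjusted call either. Of 14 tested assembly factors of complex I 7 were above and 7 below 0, with a median log2 fold change of -0.0003. Ndufaf2, the one of smallest p, had 11.3, 11.4 and 9.73 FPKM in DKO libraries, against 12.4, 11.6 and 12.8 FPKM in control libraries. All DKO values were lower, with a log2 fold change of -0.17 (limma adjusted p = 0.660). Assembly factors of the other complexes were as evenly split, 16 above and 18 below 0 of 34, with a median of -0.0062. An unadjusted p under 0.05 was reached by 0 assembly factors of complex I and by 2 (5.88%) of those of the other complexes. Bcs1l, which inserts the Rieske protein, had 5.74, 5.87 and 7.58 FPKM in DKO libraries, against 5.70, 3.39 and 4.41 FPKM in control libraries. The DKO values were the higher ones throughout, the lowest by little, with a log2 fold change of 0.44 (SE 0.17, limma adjusted p = 0.592). Of 29 carriers and citric acid cycle enzymes 23 were below 0 and 6 above, with a median of -0.05. Against 7.88% of all tested rows, 1 of them (3.45%) reached an unadjusted p under 0.05. This was the phosphate carrier Slc25a3, with 198, 205 and 207 FPKM in DKO libraries, against 219, 213 and 224 FPKM in control libraries. Its groups did not overlap, at a log2 fold change of -0.10 (limma adjusted p = 0.601).

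Among 24 genes of protein import 15 were below 0 and 9 above, with a median of -0.05. Of these 4 (16.7%) reached an unadjusted p under 0.05, beside 7.88% of all tested rows. Timm10, a chaperone of the intermembrane space, had 15.7, 16.5 and 18.0 FPKM in DKO libraries, against 21.3, 23.7 and 22.6 FPKM in control libraries. The groups were well apart, with a log2 fold change of -0.41 (SE 0.07, limma adjusted p = 0.196). Chchd4, which oxidises proteins on import, was higher in DKO instead, at 20.7, 21.5 and 20.7 FPKM in DKO libraries, against 18.0, 16.1 and 19.0 FPKM in control libraries. It too had no overlap, with a log2 fold change of 0.24 (limma adjusted p = 0.477). Of 19 regulators of mitochondrial genes 10 were above and 9 below 0, with a median of 0.01. Of these regulators 3 (15.8%) reached an unadjusted p under 0.05, 1 higher and 2 lower. Subunits of the mitochondrial ribosome, 33 above and 44 below 0 of 77, had a median of -0.02. There 9 (11.7%) reached that level, 3 higher and 6 lower.

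Transcript length, which the symbol rule did not use, went with the direction of the difference over all genes. Members have short transcripts, with a median of 913 bases against 3180 bases over 13130 tested rows with a length, and 46 of 82 were under 1000 bases. Other genes under 1000 bases had a median log2 fold change of -0.03, with 57.3% below 0 and 13.8% at an unadjusted p under 0.05, whereas genes of 5000 bases or more had a median of 0.02. Members under 1000 bases had a median of -0.04, and the 26 members from 1000 to under 2000 bases had -0.04 beside -0.02 for other genes of that length. With the length trend taken out of each library, the medians of complexes I to V were -0.02, 0.01, -0.05, -0.03 and -0.02. In that fit 10 members reached an unadjusted p under 0.05, and the share of all tested rows at that level was not taken. Whether members differ from other genes of the same length was not tested.

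**Figure D5:**
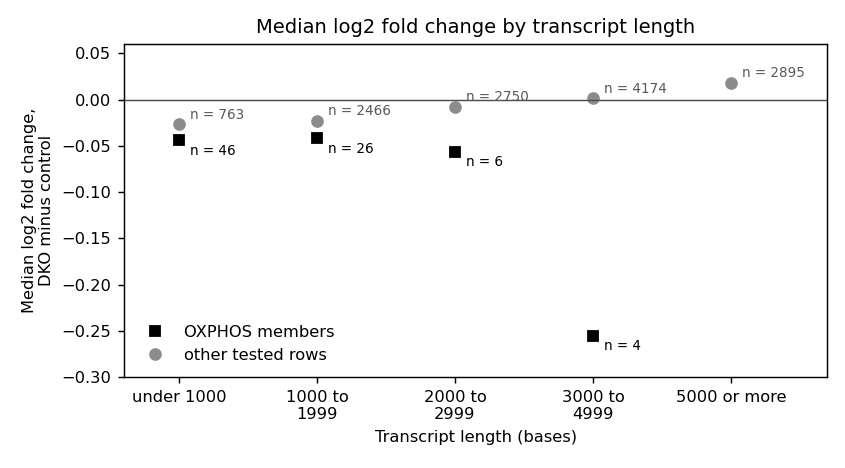
Median log2 fold change, DKO minus control, by class of transcript length, for OXPHOS members (squares) and other tested rows (circles), with the number of genes beside each. Other rows go from -0.03 under 1000 bases to 0.02 at 5000 bases or more, and members lie lower in each of the 4 classes that hold any, the class from 3000 to under 5000 bases holding only 4 members.

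Sums of cell type markers also differed between groups. The 5 cone photoreceptor markers summed to 492 to 543.5 FPKM in DKO and 553 to 598 FPKM in control libraries, and the 5 bipolar cell markers to 437.5 to 452 FPKM in DKO and 461 to 470.2 FPKM in control libraries. Both sums were lower in every DKO library. The 4 amacrine cell markers summed to 287 to 295 FPKM in DKO and 250.4 to 267 FPKM in control libraries, higher in every DKO library. Endothelial markers, 3 in all, summed to 26.6 to 31.3 FPKM in DKO and 31.7 to 36.8 FPKM in control libraries. Rod, ganglion cell, Müller glia, pigment epithelium, microglia, erythroid and muscle sums overlapped between groups. The part of these shifts in the OXPHOS values was not tested.

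Reads shared with copies or with genes on the other strand concern many members. A near-identical copy (at least 95% identity over at least 80% of the coding sequence) exists elsewhere in the genome for 21 members, whose median log2 fold change was -0.04 beside -0.05 for the 61 tested members without one. Exon bases are shared with an antisense gene in 27 members, and of the 26 tested ones 22 were below 0, with a median of -0.08. The kit marks strand, but no source used here says whether the counting used it.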

How the data were processed

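Per the labels' protocols, TRIzol was used for extraction and the TruSeq stranded mRNA kit for the libraries. The authors deposited 1 table of FPKM per library, per the file headers. Per the submitters' processing notes the tools were TopHat2 2.1.1, Bowtie2 and Cuffdiff 2.2.1, with build mm10. Annotation, filters and use of strand are details not given in the sources used here. FPKM carry no read totals, so depth is unknown and precision comes from the 3 libraries per group.

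The 13215 rows whose mean was at least 1 FPKM were fitted in R 4.3.3 by limma 3.58.1, on log2(FPKM + 1) (lmFit, eBayes with a trend, no covariate), DKO minus control, with Benjamini-Hochberg adjustment over all of them and a threshold of 0.05. The scale understates the change of low genes. Sums, medians and counts of members carry no test.

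The symbol rule for members used no expression values, but members and gene lists were chosen with earlier results of these data known. Named were, in each complex, the members of smallest p (5, or 2 in complex II), the highest, 15 catalytic or structural subunits, tissue isoforms, and the 1 or 2 genes of smallest p of other lists. Ndufs5, Ndufs3, Ndufs8, Ndufv2, Uqcr11, Atp5s and Atp5sl were added after their values were seen, and the 3 rows past the threshold, no members, are not described. GENCODE M21, on GRCm38 like mm10, gave gene models for the symbols, 23310 by name and 661 by synonym, with 375 unmatched. A gene's length is that of its longest transcript. Copies were searched with BLAST 2.17.0, and other steps used Python 3.11.15, pandas 2.3.3 and NumPy 2.4.6. Alternatives changed the pseudocount (0.1 or 0.5), the filter (none, or 5 FPKM), the scaling (median of ratios or quantiles), or tried removal of a length trend, a replicate block, eBayes without a trend, leaving out each library, Ndufa4 and Ndufa4l2 in complex IV, and, chosen after the data were seen, leaving out members with a near-identical copy. A gene that the rule names and a marker gene are not reported here.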

Additional observations from a re-analysis of the deposited data

How the results depend on the processing

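No member was called under any alternative, and no sign of a complex median changed except in complex II, at -0.0047 with all libraries, 0.01 under quantile normalization and with the length trend removed, and -0.03 to 0.02 with 1 library left out. Over all tested rows 3 were called, 1 without a trend in eBayes and 1 to 4 with 1 library left out. Members at an unadjusted p under 0.05, 13 with all libraries, numbered 11 to 20 with 1 library left out (20 without control replicate 2). They numbered 10 under quantile normalization, without the length trend or without a trend in eBayes, and 15 with no filter. The share of all tested rows at that level was not taken for these fits, so the counts have no background beside them. Members without overlap between groups, 18 with all libraries, numbered 21 to 32 with 1 library left out, the most without control replicate 2. Fewer libraries overlap less often in any gene, and the share of all tested rows without overlap was not taken for these fits. With 1 library left out the medians were -0.07 to -0.02 in complex I, -0.10 to -0.06 in complex III, -0.11 to -0.03 in complex IV and -0.064 to -0.013 in complex V, where the ends come from leaving out DKO replicates 1 and 2. Leaving out members with a near-identical copy, a choice made after the data were seen, left 10 members at an unadjusted p under 0.05 and medians of -0.03, -0.0047, -0.10, -0.06 and -0.05 in complexes I to V.

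With the replicate number as a block, 2 rows and 0 members were called and 17 members had an unadjusted p under 0.05. The share of all tested rows at that level was not taken for this fit. Between groups, libraries of the same number had deviations correlated at 0.07, 0.0063 and 0.10, and those of unlike numbers at -0.12 to 0.04. The highest of all these values, 0.10 and 0.07, came from libraries of the same number. No label gives a pairing, so the numbers were not taken as pairs, and whether they mark one was not tested.

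Of 41 tested members followed through the alternatives 29 kept their sign in every one. The other 12 changed sign in at least 1. Ndufs3, Ndufs8, Ndufv2, Uqcr11, Atp5s and Atp5sl, although named above, were not among those followed. Under quantile normalization Cox4i1 was at 0.0016, Ndufv1 at 0.0019, Sdha at 0.0089 and Sdhb at 0.013, and with the length trend removed Cox4i1 was at 0.0098, Cox7a2l at 0.011, Ndufv1 at 0.012, Sdha at 0.0019 and Sdhb at 0.024. With 1 library left out the log2 fold change ran over -0.042 to 0.048 in Atp5c1, -0.026 to 0.079 in Atp5g2, -0.063 to 0.025 in Cox4i1, -0.014 to 0.19 in Cox4i2, -0.14 to 0.22 in Cox6b2, -0.039 to 0.0097 in Cox7a2l, -0.13 to 0.0054 in Ndufa4, -0.0077 to 0.35 in Ndufa4l2, -0.025 to 0.048 in Ndufs7, -0.062 to 0.026 in Ndufv1, -0.010 to 0.0075 in Sdha and -0.047 to 0.030 in Sdhb. Ndufs5 was at 3.07 with a pseudocount of 0.1 and at 0.32 to 2.99 with 1 library left out. The causes of these shifts were not tested. There were 3 libraries per group and no read totals. No member difference was large enough against its spread to pass the adjusted threshold over all tested rows.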

Other observations

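Outside the complexes, Pet117, an assembly factor of complex IV, was near 0 in all DKO libraries and in 1 control library. It had 0.540, 0 and 0 FPKM in DKO libraries, against 8.87, 5.13 and 0 FPKM in control libraries, with a log2 fold change of -1.77 (SE 0.74, limma adjusted p = 0.621), and the groups overlapped at 0. Mrpl55, a subunit of the mitochondrial ribosome, had 10.9, 14.1 and 12.3 FPKM in DKO libraries, against 14.9, 15.2 and 18.3 FPKM in control libraries, with a log2 fold change of -0.35 (SE 0.11, limma adjusted p = 0.506). Pprc1, a coactivator of respiratory genes, had 3.97, 3.74 and 3.81 FPKM in DKO libraries, against 2.71, 3.40 and 2.96 FPKM in control libraries. Its groups did not overlap, and it was higher in DKO with a log2 fold change of 0.27 (SE 0.10, limma adjusted p = 0.591).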
